A study of Arabidopsis thaliana with 24 samples.

Results

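FLOWERING LOCUS C (FLC), FLOWERING LOCUS M (FLM, also MAF1), MADS AFFECTING FLOWERING 2 to 5 (MAF2, MAF3, MAF4 and MAF5) and Short Vegetative Phase (SVP) of Arabidopsis thaliana were followed through a study of LSM mutants. They were chosen by name as known floral repressors, with earlier results of these data known. They are 7 of the 33602 genes in the deposited count tables. The tables also hold 48 introns of these genes among 120717 introns, and 14 alternatively spliced exon or intron segments (AS bins) among 7973.
The 7 AGI identifiers are AT5G10140 (FLC, chromosome 5, 3173497 to 3179448, minus strand), AT1G77080 (FLM, chromosome 1, 28955637 to 28960096), AT5G65050 (MAF2, chromosome 5, 25982254 to 25986326), AT5G65060 (MAF3, 25987429 to 25991315), AT5G65070 (MAF4, 25992243 to 25996174), AT5G65080 (MAF5, 25997504 to 26002465) and AT2G22540 (SVP, chromosome 2, 9579874 to 9583893), in TAIR10 coordinates and on the plus strand unless stated.

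All 7 genes encode MADS-box transcription factors that hold back the switch to flowering. FLC, the vernalization-sensitive repressor, and SVP, which acts in warmth sensing, bind as partners at the florigen gene FT and at the integrator gene SOC1. FLM belongs to the same branch of the family as FLC and the MAF genes, and its alternative transcripts join SVP in temperature-dependent repression. MAF2 to MAF5 stand in tandem, and MAF2 transcripts are known to keep intron 3 at warmer growth temperatures. LSM4 and LSM5 are subunits of ring-shaped protein complexes, of which the nuclear form binds U6 snRNA of the spliceosome and the cytoplasmic form promotes mRNA decapping. The study profiled the transcriptomes of mutants of both subunits by RNA-seq.

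The mutants were lsm4-1 (here lsm4) in the Col accession, compared with WT Col, and sad1, a mutant of LSM5 (here lsm5), in the C24 accession, compared with WT C24. The lsm4 and WT Col plants grew on MS medium with agarose and were taken at day 15, while lsm5 and WT C24 plants grew on soil and were taken at day 30, before bolting, although the series text gives a single shorter growth time for all plants. All plants grew at 22 °C in continuous light after 4 days of cold stratification, and RNA came from whole plants. Each of the 4 groups has 3 replicates, and each replicate is 2 sequenced libraries, giving 24 samples. The deposited tables have 1 count column per replicate, 12 in all, taken here as the sum of both libraries, which the sources do not state. Mutants are thus nested in accession, age and substrate, and the labels give no lesion, number of plants or shared origin of replicates, so that the p-values reflect only how far these columns vary, which may be technical.

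Total gene counts per column ran from 9402839 in WT Col replicate 1 to 52218346 in WT Col replicate 2. On principal components WT C24 replicate 2 and lsm5 replicate 3 lay between the genotypes on the first axis and apart on the second, and without both columns the lsm5 comparison called 7901 genes instead of 486. WT Col replicate 1 and lsm4 replicate 2 lay apart from their own groups on the second axis. Levels are given as CPM, which are counts scaled to library size after that size is adjusted by a TMM factor for each column. LSM4 itself had 397, 225 and 392.3 CPM in lsm4, against 41.0, 49.0 and 71.5 CPM in WT Col. LSM5 had 10.6, 11.6 and 17.6 CPM in lsm5, against 20.9, 12.8 and 15.998 CPM in WT C24. The sources give no lesion, so the total count of either gene does not check the labels. Of 4 root markers, RHD6 had 0 counts in all lsm5 and WT C24 columns and the summed level was 2.77 to 3.28 CPM in lsm5 and 3.99 to 5.94 CPM in WT C24, so the whole-plant label of the soil-grown plants is not matched by root transcripts. The same sum was 56.3 to 74.9 CPM in lsm4 and 117 to 193 CPM in WT Col.

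Intron 3 is shown for MAF2, where it had more reads than any other tested intron of the 7 genes in the Col plants, and for its relatives MAF3, FLM and FLC, because the sequences show how alike these introns are. Sequences are from the RefSeq TAIR10.1 assembly, 5′ to 3′ on the gene's strand, with the terminal GT and AG in capitals.
MAF2 intron 3, chr5:25985003-25985088, plus strand: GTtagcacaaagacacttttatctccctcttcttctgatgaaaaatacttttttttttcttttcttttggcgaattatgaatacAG
MAF3 intron 3, chr5:25990004-25990083, plus strand: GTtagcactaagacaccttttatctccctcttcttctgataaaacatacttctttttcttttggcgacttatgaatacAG
FLM intron 3, chr1:28958664-28958744, plus strand: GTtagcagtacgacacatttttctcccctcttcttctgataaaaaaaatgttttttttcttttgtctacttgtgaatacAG
FLC intron 3, chr5:3175274-3175363, minus strand: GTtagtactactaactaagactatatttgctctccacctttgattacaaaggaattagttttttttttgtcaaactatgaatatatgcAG
Aligned over their length, intron 3 of MAF2 was 85.1% identical to that of MAF3, 77.0% to that of FLM, 60.8% to that of FLC and 49.6% to that of SVP. The spliced transcripts of MAF2 and MAF3 were 81.4% identical, and those of MAF2 and FLM 77.7%. Of the 50-base windows within single exons, 12 of 827 in MAF3 and 12 of 685 in FLM occurred again in the genome, and none did in the other 5 genes. A small share of MAF3 and FLM thus cannot be placed uniquely by 50 bases, and their counts are to that extent uncertain. Windows across exon junctions and exons under 50 bases were not examined.

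SVP contributes the 5′ splice sites of its 8 introns, on the plus strand. They are shown because some of these introns differed in reads between mutant and wild type. The last 3 exon bases are in lower case and the first 6 intron bases in capitals.
SVP intron 1, chr2:9580596-9580604: cagGTCTTT
SVP intron 2, chr2:9581582-9581590: cagGTTAGC
SVP intron 3, chr2:9581933-9581941: aagGTACGT
SVP intron 4, chr2:9582148-9582156: aagGTTGTT
SVP intron 5, chr2:9582275-9582283: aagGTAATA
SVP intron 6, chr2:9582428-9582436: caaGTATGT
SVP intron 7, chr2:9582941-9582949: caaGTACGT
SVP intron 8, chr2:9583191-9583199: cggGTAACC
In introns 6 and 7 the exon ends in CAA rather than in the usual G. Whether the splice site sequence bears on the intron reads was not tested. All 37 introns of the 7 genes that span from exon to exon begin with GT and end with AG, and 21 of them have G at the fifth base (the motif GTNNG, read on the gene's strand), against 49.6% of the GT-AG introns in the count table.

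The repressors differed in their standing within a plant. Measured as CPM per kilobase of exon, MAF2 was highest in lsm4 at 30.8 ± 6.33 (SD, n = 3), beside SVP at 30.2 ± 6.82, and FLC was lowest at 0.116 ± 0.0705. WT Col had SVP highest at 36.7 ± 3.65, then MAF2 at 29.5 ± 1.35, FLM at 16.6 ± 1.16 and MAF3 at 8.35 ± 1.08, with MAF5, MAF4 and FLC overlapping at the low end, at mean levels of 1.66, 1.42 and 1.34. In lsm5, SVP at 66.6 ± 3.87 was followed by FLC at 27.9 ± 4.38, and FLM was lowest at 0.129 ± 0.0872. WT C24 had the same 2 genes at the top, SVP at 71.4 ± 7.73 and FLC at 65.7 ± 7.95, which overlapped, and again FLM lowest at 0.359 ± 0.0855. FLC thus moved between the bottom of this order in the Col plants and the place next below SVP in the C24 plants, and FLM between the middle and the bottom.

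**Figure D1:**
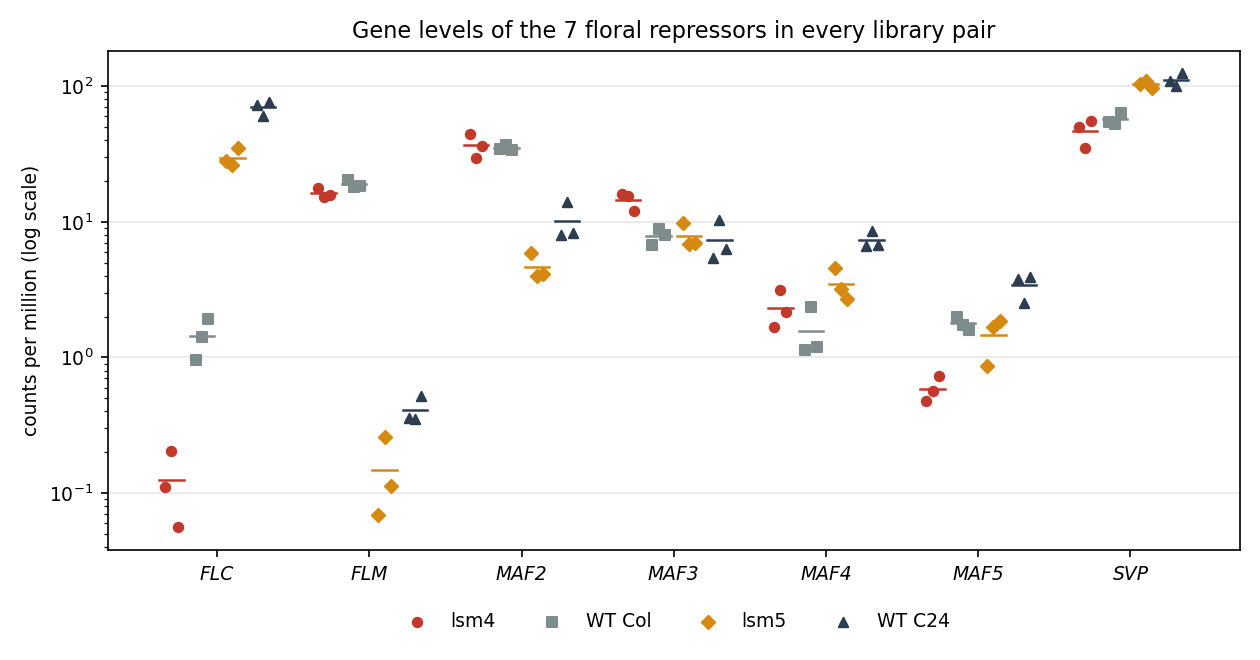
Level of each repressor in every count column, in CPM on a log axis, with lsm4 left of WT Col and lsm5 left of WT C24. Each point is 1 replicate and each line the mean of 3. FLC spans 0.0558 CPM in lsm4 to 77.0 CPM in WT C24, and FLM spans 0.0691 CPM in lsm5 to 20.5 CPM in WT Col.

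In lsm4, FLC and MAF5 were lower and MAF3 was higher than in WT Col, while FLM, MAF2, MAF4 and SVP did not pass the test. The test was edgeR's quasi-likelihood test over 20793 genes with Benjamini-Hochberg adjustment, and a gene was called at an adjusted p under 0.05. It called 21.4% of all genes, 10.7% higher and 10.7% lower in lsm4, beside which 1 of the 7 repressors was called higher and 2 were called lower. The median log2 fold change of the 7 was -0.24, against 0.020 over all genes.

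FLC had 4, 8 and 2 counts in lsm4, or 0.112, 0.204 and 0.0558 CPM, against 10, 70 and 48 counts in WT Col, or 0.953, 1.42 and 1.92 CPM. Every lsm4 value lay below every WT Col value, on low counts in both. FLC fell by 3.52 ± 0.57 (SE) on the log2 scale, an 11.5-fold lower level (adjusted p = 0.0030). The libraries carry no strand, so reads of FLC and of the antisense RNAs across it cannot be told apart, and in whole plants fewer expressing cells and less RNA per cell cannot be told apart either.

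MAF5, the last gene of the tandem array, had 0.474, 0.562 and 0.726 CPM in lsm4, against 2.00, 1.74 and 1.60 CPM in WT Col. The groups did not overlap, and MAF5 fell by 1.61 ± 0.37 on the log2 scale (adjusted p = 0.015). Without lsm4 replicate 1 its adjusted p was 0.076 and without WT Col replicate 2 it was 0.054.

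MAF3, a floral repressor close in sequence to MAF2, went the other way. It had 15.9, 15.5 and 12.0 CPM in lsm4, against 6.77, 8.79 and 7.96 CPM in WT Col, and again the groups did not overlap. MAF3 rose by 0.85 ± 0.22 on the log2 scale (adjusted p = 0.025), and the call was lost in 5 of 13 alternatives, with an adjusted p of up to 0.094 without lsm4 replicate 1. Without WT Col replicate 1, 2 or 3 its adjusted p was 0.0501, 0.056 and 0.065.

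The most abundant repressors did not pass the test. MAF2 had 44.7, 29.7 and 36.0 CPM in lsm4, against 34.6, 37.1 and 34.0 CPM in WT Col, with overlapping groups and a log2 fold change of 0.04 ± 0.19 (adjusted p = 0.91). SVP had 50.1, 35.1 and 55.6 CPM in lsm4, against 54.8, 52.9 and 63.6 CPM in WT Col, also overlapping, with a log2 fold change of -0.31 ± 0.21 (adjusted p = 0.33).
FLM had 17.9, 15.2 and 15.9 CPM in lsm4, against 20.5, 17.98 and 18.5 CPM in WT Col, narrowly without overlap, and a log2 fold change of -0.24 ± 0.18 (adjusted p = 0.37). MAF4 had 1.67, 3.14 and 2.15 CPM in lsm4, against 1.14, 2.35 and 1.2002 CPM in WT Col, with a log2 fold change of 0.50 ± 0.41 (adjusted p = 0.42). Replicate 2 was the highest MAF4 value in both groups, which overlapped.

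In lsm5, FLC was lower than in WT C24, and it was the only repressor of 6 tested that was called. MAF2, MAF4 and MAF5 had log2 fold changes near that of FLC but did not pass, and FLM stayed below the filter on low counts. The test called 2.45% of 19819 genes, and 0.938% of the tested genes were called lower in lsm5. The median log2 fold change of the 6 was -1.10, against 0.0071 over all genes.

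FLC had 27.9, 26.2 and 35.0 CPM in lsm5, against 72.3, 60.6 and 77.0 CPM in WT C24. The groups stood far apart, on 807 to 1243 counts per column in lsm5 and 1211 to 1911 in WT C24. FLC fell by 1.23 ± 0.19 on the log2 scale, a 2.35-fold lower level (adjusted p = 0.018). Without WT C24 replicate 1 or 3, or lsm5 replicate 1 or 2, the adjusted p was 0.081, 0.11, 0.091 and 0.099. The log2 fold change there was -1.21, -1.15, -1.19 and -1.15. Those fits called 54, 23, 98 and 37 genes in all, against 486 with all columns.

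MAF2 had 5.84, 3.99 and 4.11 CPM in lsm5, against 8.06, 14.0 and 8.30 CPM in WT C24, without overlap. Its log2 fold change was -1.13 ± 0.30 (adjusted p = 0.091). MAF4, a repressor that can form complexes with FLC, had 4.60, 3.18 and 2.71 CPM in lsm5, against 6.63, 8.62 and 6.73 CPM in WT C24, also without overlap. Its log2 fold change was -1.07 ± 0.28 (adjusted p = 0.088).
MAF5 had 0.864, 1.69 and 1.86 CPM in lsm5, against 3.76, 2.52 and 3.91 CPM in WT C24, without overlap, and a log2 fold change of -1.19 ± 0.37 (adjusted p = 0.14). DESeq2's Wald test gave adjusted p-values of 0.013 for MAF2, 0.012 for MAF4 and 0.034 for MAF5, and called 1486 of 19819 genes. None of the 3 passed in a fit that leaves out 1 column, and those fits called 23 to 2042 genes in all. The adjusted p there was 0.059 to 0.30 for MAF2, 0.063 to 0.29 for MAF4 and 0.052 to 0.39 for MAF5. Without WT C24 replicate 2 and lsm5 replicate 3 together, the adjusted p-values were 0.030 for MAF2, 0.031 for MAF4 and 0.0057 for MAF5, and the log2 fold changes -0.73, -0.78 and -1.58, in a fit that called 7901 of 19792 genes. Those columns were left out after seeing that they lay between the genotypes, so passing in that fit is no support for a change.

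MAF3 had 9.75, 6.91 and 6.99 CPM in lsm5, against 5.37, 10.4 and 6.33 CPM in WT C24, with overlapping groups and a log2 fold change of 0.09 ± 0.30 (adjusted p = 0.90). SVP, the most abundant of the 7, had 104.6, 109.1 and 97.2 CPM in lsm5, against 108.9, 100.3 and 124.1 CPM in WT C24, also overlapping, with a log2 fold change of -0.10 ± 0.16 (adjusted p = 0.79). FLM had 2, 8 and 4 counts in lsm5 and 6, 11 and 13 counts in WT C24, or 0.0691, 0.260 and 0.113 CPM in lsm5 against 0.358, 0.351 and 0.524 CPM in WT C24. These counts are too few for the test, although the groups did not overlap.

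**Figure D2:**
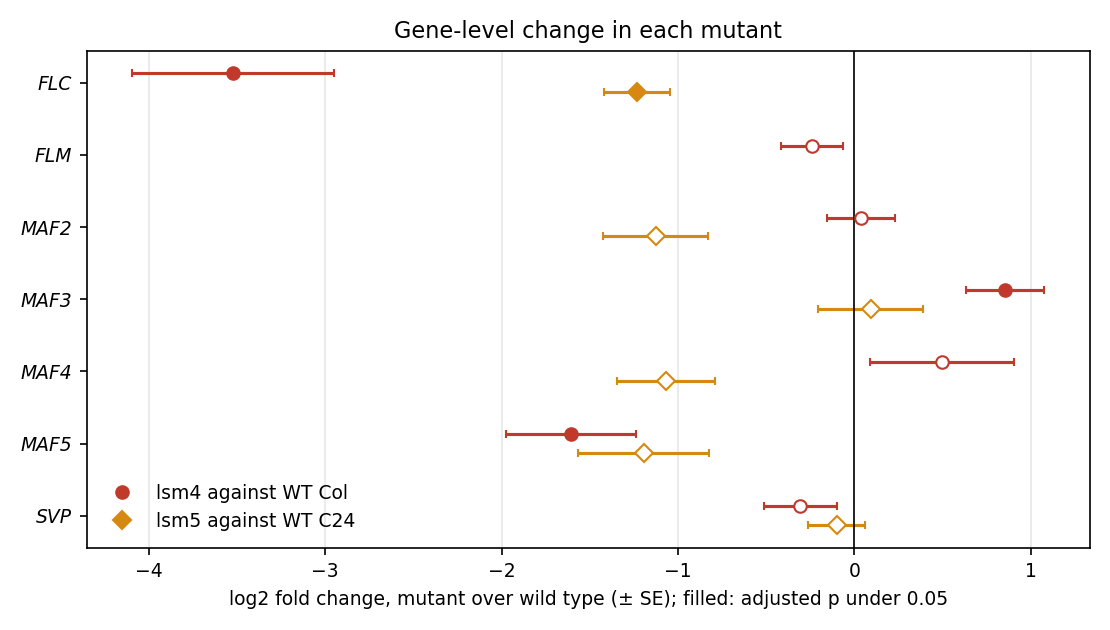
Log2 fold change of each repressor, mutant over its wild type, with its SE, the lsm4 comparison above the lsm5 comparison. Filled symbols have an adjusted p under 0.05. FLC is filled and left of 0 in both mutants, at -3.52 in lsm4 and -1.23 in lsm5, while MAF3 is filled at 0.85 in lsm4 and open at 0.09 in lsm5. FLM was not tested in lsm5.

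The size of the effect was compared between the mutants in a joint edgeR fit over all 4 groups, as the lsm5 effect minus the lsm4 effect. That fit called 10.5% of 21588 genes, 5.08% higher and 5.41% lower. FLC had a difference of 2.28 ± 0.46 (adjusted p = 0.0070), the log2 fall being smaller in lsm5, and this held in all 19 alternatives. MAF2 had a difference of -1.19 ± 0.35 (adjusted p = 0.044), a call lost in 13 of 19 alternatives, with an adjusted p of up to 0.11. Of the 12 fits that leave out 1 column, 9 lost it, and those without lsm4 replicate 2, WT C24 replicate 1 or lsm5 replicate 1 kept it.
MAF4 had a difference of -1.58 ± 0.49 (adjusted p = 0.056), and it passed without WT Col replicate 2 (adjusted p = 0.024) and under DESeq2's Wald test (adjusted p = 0.021). FLM is not compared, since its counts in the C24 plants are too few for an effect of lsm5. MAF3 had -0.79 ± 0.37 (adjusted p = 0.21), MAF5 had 0.39 ± 0.50 (adjusted p = 0.69) and SVP had 0.18 ± 0.26 (adjusted p = 0.73). Mutated subunit, accession, age and substrate differ together between these effects and cannot be told apart.

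The wild types themselves differed in most of these genes, FLC being far higher and FLM far lower in WT C24. Between WT C24 and WT Col, 42.4% of genes were called, 19.8% higher and 22.6% lower in WT C24, and of the 7 repressors 4 were called higher and 2 lower. FLC averaged 70.0 ± 8.47 CPM in WT C24 and 1.43 ± 0.48 CPM in WT Col (SD, n = 3 each), a log2 fold change of 5.56 ± 0.30 (adjusted p = 5.3e-08). FLM averaged 0.411 ± 0.0978 CPM in WT C24 and 19.0 ± 1.33 CPM in WT Col, a log2 fold change of -5.51 ± 0.32 (adjusted p = 9.5e-08).
The genes on either side of FLM, AT1G77060 and AT1G77090, averaged 32.8 and 41.6 CPM in WT C24, against 22.4 and 66.1 CPM in WT Col, so only FLM of these 3 neighbours was near 0. Reads of C24 were counted on the Col reference, and whether C24 sequence differences lower a gene's count was not tested.

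MAF4 averaged 7.32 ± 1.12 CPM in WT C24 and 1.56 ± 0.68 CPM in WT Col, a log2 fold change of 2.17 ± 0.36 (adjusted p = 3.7e-04). SVP averaged 111.1 ± 12.0 CPM in WT C24 and 57.1 ± 5.68 CPM in WT Col, a log2 fold change of 0.96 ± 0.18 (adjusted p = 0.0011). MAF2 ran against them, with 10.1 ± 3.37 CPM in WT C24 and 35.2 ± 1.62 CPM in WT Col and a log2 fold change of -1.79 ± 0.25 (adjusted p = 1.0e-04).
MAF5 averaged 3.397 ± 0.762 CPM in WT C24 and 1.78 ± 0.203 CPM in WT Col, a log2 fold change of 0.94 ± 0.35 (adjusted p = 0.043) that lost its call in 9 of 18 alternatives, among them those without any 1 of the 3 WT Col replicates or without WT C24 replicate 1 or 3 (adjusted p = 0.056 to 0.13). MAF3 averaged 7.36 ± 2.65 CPM in WT C24 and 7.84 ± 1.02 CPM in WT Col, with a log2 fold change of -0.09 ± 0.26 (adjusted p = 0.80). Across the 4 groups, neighbours in the order of levels overlapped for MAF3 in lsm5, WT Col and WT C24, for MAF4 in lsm5, lsm4 and WT Col, for MAF5 in WT Col and lsm5, for MAF2 in lsm4 and WT Col, and for SVP within each accession, whereas all neighbours were apart for FLC and FLM. Accession, age and substrate cannot be told apart in these differences.

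Intron reads were examined next, because the nuclear LSM ring serves splicing. Each intron count was tested relative to the count of its gene, and its density is given as reads per intron base in percent of the gene's reads per exonic base. Short introns collect reads that only partly overlap them, so densities compare groups within an intron and not introns with each other. In the lsm4 comparison 18.1% of 11439 introns were called, 17.8% higher in lsm4, and of the 14 introns of the repressors that passed the filter 1 was called, in SVP. In the lsm5 comparison 0.531% of 7151 introns were called, and none of the 7 tested introns of the repressors, where 2 had an unadjusted p under 0.05 and DESeq2 also called none. In the difference between the mutants 0.0145% of 13774 introns were called, none of them among the 12 tested introns of these genes, of which 2 had an unadjusted p under 0.05 and DESeq2 called 0. Introns as a whole were higher relative to their genes in the mutants, with a median log2 fold change of 0.65 over all tested introns in lsm4 and 0.24 in lsm5. The medians of the repressors' tested introns were 0.56 in lsm4 and 0.57 in lsm5.

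SVP intron 6, which lies downstream of the caaGTATGT site printed above, had densities of 10.7%, 12.0% and 6.63% in lsm4, against 2.87%, 4.30% and 3.74% in WT Col. All lsm4 values exceeded all WT Col values, on 58, 50 and 40 reads in lsm4 and 5, 34 and 18 reads in WT Col. Relative to the gene, intron 6 rose by 1.35 ± 0.38 on the log2 scale, a 2.55-fold higher level (adjusted p = 0.023). The call was lost without WT Col replicate 2 (adjusted p = 0.073), without WT Col replicate 3 (adjusted p = 0.076) and without lsm4 replicate 1 (adjusted p = 0.083). Tested without the gene count as offset, its log2 fold change was 0.45 (adjusted p = 0.49). The authors' own deposited comparison does not list it as changed.
In the C24 plants the same intron had 3.17%, 2.36% and 4.31% in lsm5, against 3.08%, 2.63% and 2.79% in WT C24. These groups overlapped, with a log2 fold change of 0.22 ± 0.38 (adjusted p = 0.90).

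SVP intron 7, after the caaGTACGT site, is printed whole because reads over it were absent or nearly so in both wild types.
SVP intron 7, chr2:9582944-9583041, plus strand: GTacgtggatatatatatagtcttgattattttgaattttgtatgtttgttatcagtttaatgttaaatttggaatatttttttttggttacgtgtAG
It had 4, 4 and 10 reads in lsm4, against 0, 0 and 0 reads in WT Col, which relative to the SVP counts is 5.55-fold higher when the WT Col group is set to a floor of 3 reads. For the reads as counted, without that floor, the exact 95% interval of the ratio begins at 4.07. This interval and the next take reads as independent, and are too narrow where they are not. In the C24 plants it had 3, 7 and 4 reads in lsm5, against 0, 0 and 1 reads in WT C24, a ratio of 11.5 with an exact 95% interval of 1.74 to 484 that covers counting error only. Both mutants lay above their wild types in every column, on counts too low for the test. The intron was picked because its wild-type reads were near 0, so neither interval is a test of a difference.

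SVP intron 8 had 3.32%, 3.18% and 5.99% in lsm4, against 0.692%, 1.98% and 1.00% in WT Col, without overlap (adjusted p = 0.057). In C24 plants it had 4.47%, 3.43% and 1.85% in lsm5, against 1.53%, 1.77% and 1.42% in WT C24, also without overlap (adjusted p = 0.38). Introns 3 to 5 overlapped between mutant and wild type in both accessions, except intron 5 in the C24 plants, where it ran from 9.35% to 13.9% in lsm5 and from 3.19% to 9.22% in WT C24.
Summed over its introns, SVP intron reads came to 7.57%, 9.53% and 7.68% of the gene count in lsm4, against 5.22%, 3.79% and 3.15% in WT Col. In the C24 plants they came to 4.96%, 4.73% and 5.51% in lsm5, against 3.51%, 3.31% and 3.48% in WT C24. The median log2 fold change of 5 tested SVP introns was 0.63 in lsm4 and 0.57 in lsm5, beside 0.65 and 0.24 over all introns, so in lsm4 it was near that of introns in general. Neither pair of groups overlapped, and the two-sided exact permutation p was 0.1 in each, the smallest that 3 against 3 allows.

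**Figure D3:**
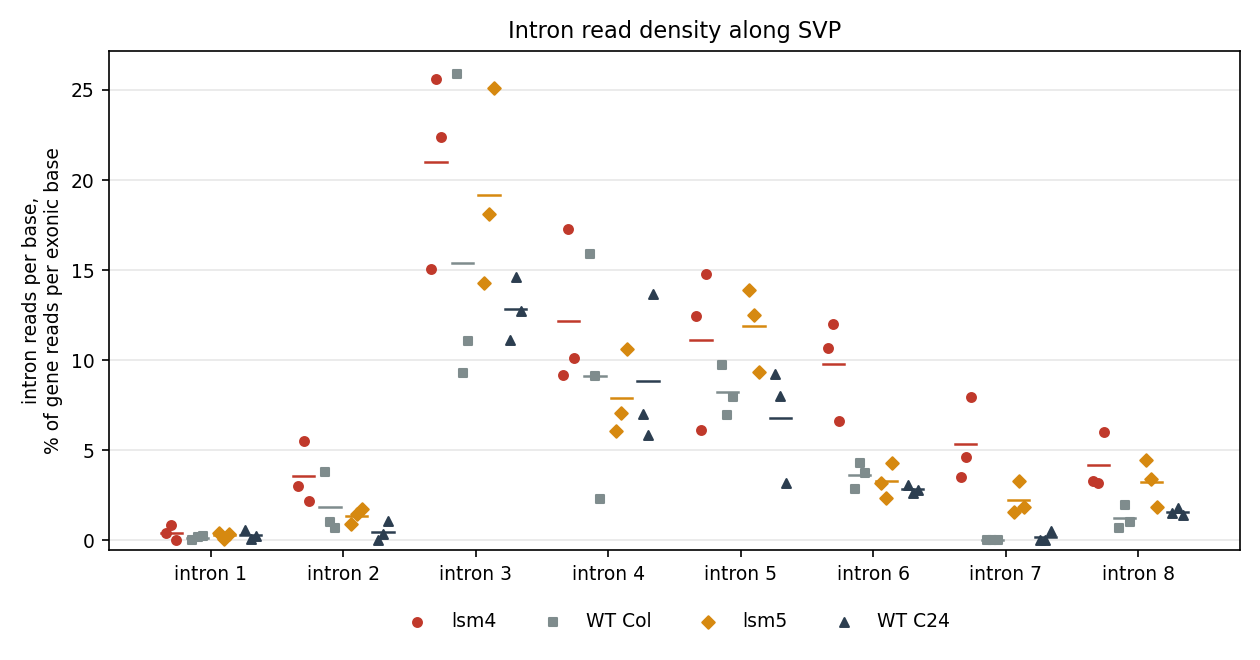
Intron read density along SVP, in percent of the gene's reads per exonic base, for introns 1 to 8, with lsm4 left of WT Col and lsm5 left of WT C24. Points are replicates and lines means. At intron 6 the lsm4 points sit at 6.63% to 12.0% above all others, and at intron 7 both wild types are at or near 0.

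MAF2 intron 3 showed no difference that passed the test in either mutant, yet its level separated lsm5 from WT C24. Its density was 126%, 94.5% and 79.6% in lsm4, against 103%, 101% and 106% in WT Col. The groups overlapped, and the log2 fold change relative to the gene was -0.04 ± 0.29 (adjusted p = 0.94). In the C24 plants its density was 189%, 169% and 190% in lsm5, against 10.3%, 72.7% and 27.0% in WT C24. Every lsm5 value exceeded every WT C24 value, on 23, 15 and 20 reads in lsm5 and 1, 23 and 4 reads in WT C24.
The log2 fold change in lsm5 was 2.08 ± 0.57 (adjusted p = 0.11), which did not pass. It passed without WT C24 replicate 2 (log2 fold change 3.13, adjusted p = 0.046) and without that column and lsm5 replicate 3 together (3.09, adjusted p = 0.011). The columns left out together were chosen after seeing the data, so passing there is no support. In the other 5 fits that leave out 1 column the adjusted p was 0.0995 to 0.36. The fits without WT C24 replicate 1 or 3, or lsm5 replicate 1 or 2, called 0, 0, 4 and 3 introns in all. With all columns the total was 38. Without the gene count as offset the log2 fold change of MAF2 intron 3 was 0.62 (adjusted p = 0.80). The difference between the mutants, 2.097 ± 0.581, did not pass either (adjusted p = 0.42).

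Among the other introns of MAF2, intron 1 had 1.07%, 1.04% and 0.800% in lsm4, against 0.632%, 0.376% and 0.338% in WT Col, without overlap (adjusted p = 0.087). Intron 6 had 15.0%, 13.3% and 16.9% in lsm4, against 19.7%, 14.4% and 13.3% in WT Col, and 49.0%, 27.6% and 31.0% in lsm5, against 53.0%, 22.3% and 29.2% in WT C24, overlapping in both accessions. Over all introns, MAF2 intron reads were 25.4% ± 6.37 of the gene count in lsm5 and 13.5% ± 1.34 in WT C24 (SD, n = 3 each, exact permutation p = 0.1), and 15.9% ± 1.51 in lsm4 and 15.2% ± 2.14 in WT Col (exact permutation p = 0.6).

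**Figure D4:**
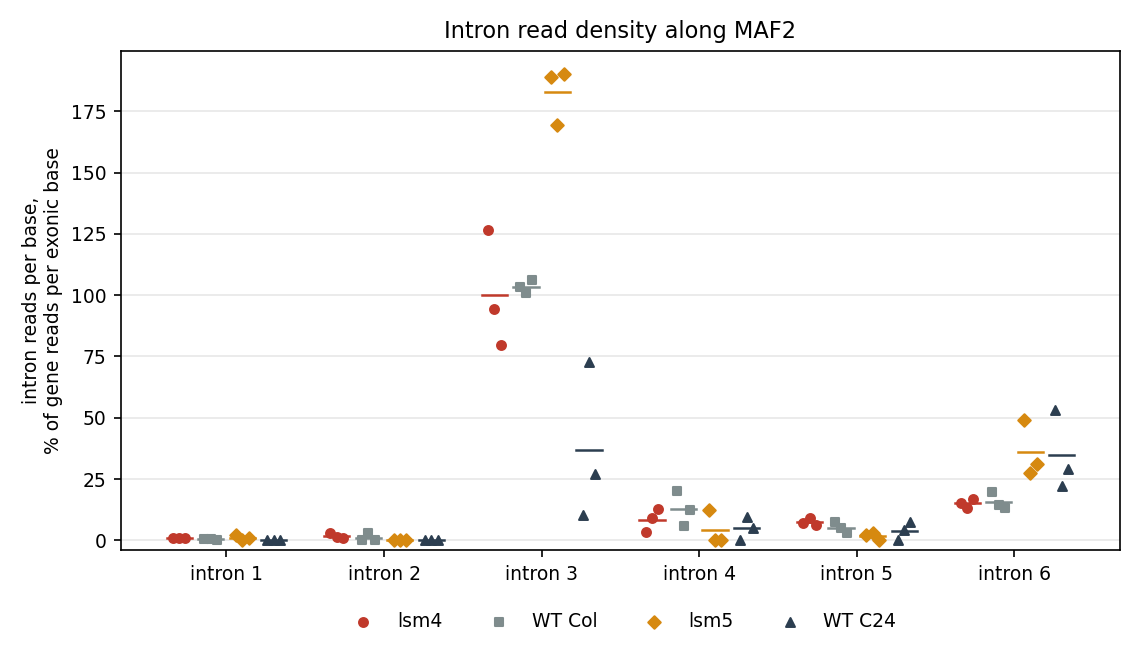
Intron read density along MAF2, in percent of the gene's reads per exonic base, for introns 1 to 6, with lsm4 left of WT Col and lsm5 left of WT C24. Points are replicates and lines means. Intron 3 separates lsm5 (169% to 190%) from WT C24 (10.3% to 72.7%), and lsm4 overlaps WT Col there.

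FLM, the gene whose alternative transcripts with exon 2 or with the following alternative exon have been assigned opposite roles in temperature sensing, had both alternative exons counted in Col plants. They are printed with 15 flanking bases each, the segment the authors counted in capitals.
FLM exon 2, chr1:28958319-28958406, plus strand: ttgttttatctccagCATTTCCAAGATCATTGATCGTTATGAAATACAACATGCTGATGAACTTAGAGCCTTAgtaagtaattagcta
FLM following alternative exon, chr1:28958441-28958516, plus strand: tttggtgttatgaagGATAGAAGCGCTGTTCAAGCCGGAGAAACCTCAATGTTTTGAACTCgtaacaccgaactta
Exon 2 had 28, 35 and 14 reads in lsm4, against 19, 47 and 13 reads in WT Col. The following alternative exon had 13, 23 and 11 reads in lsm4, against 8, 25 and 14 reads in WT Col. Neither passed the test. A stretch of 206 bases within intron 6 of FLM took 58, 33 and 10 reads in lsm4, against 2, 30 and 9 reads in WT Col, with a log2 fold change of 1.21 ± 0.55 relative to the gene (adjusted p = 0.14), and lsm4 replicate 1 held most of the lsm4 reads. Its log2 fold change was 0.65 without lsm4 replicate 1 (adjusted p = 0.54) and 0.48 without the gene count as offset (adjusted p = 0.59), and it passed without lsm4 replicate 3, at 1.63 (adjusted p = 0.044). A second stretch of the same intron had 25, 18 and 32 reads in lsm4, against 1, 24 and 25 reads in WT Col, with overlapping densities.
FLM intron reads came to 17.6% ± 6.64 of the gene count in lsm4 and 12.4% ± 3.75 in WT Col (SD, n = 3 each, exact permutation p = 0.4). This share leaves out intron 3, which was counted as an AS bin. Intron 3 had 38, 21 and 13 reads in lsm4, against 8, 24 and 4 reads in WT Col, with overlapping densities, and was not called.

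The remaining repressors had few intron reads. MAF3 intron 6 had densities of 7.47%, 12.0% and 12.1% in lsm4, against 12.9%, 7.73% and 18.4% in WT Col, which overlapped (adjusted p = 0.80). MAF3 intron 1 had 10, 12 and 3 reads in lsm4, against 0, 1 and 0 reads in WT Col. Its ratio relative to the gene was 10.9, with an exact 95% interval of 1.79 to 449 for counting error. It was picked for its few WT Col reads, so the interval is no test of a difference. MAF3 intron reads summed to 8.66% ± 1.53 of the gene count in lsm4 and 10.5% ± 3.51 in WT Col (exact permutation p = 0.5), and to 7.05% ± 1.02 in lsm5 and 8.69% ± 5.71 in WT C24 (exact permutation p = 1.0). FLC intron reads summed to 2.70% ± 1.26 in lsm5 and 0.990% ± 0.324 in WT C24 (exact permutation p = 0.2), and MAF4 intron reads to 10.3% ± 1.78 in lsm5 and 7.27% ± 2.01 in WT C24 (exact permutation p = 0.2).
No share is given where a column had under 50 gene counts, which applied to FLC, MAF4 and MAF5 in the Col plants and to FLM and MAF5 in the C24 plants.

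Among AS bins, 0.366% of 3549 were called in lsm4, and none of the 6 tested bins of the repressors was called by edgeR or DESeq2 or had an unadjusted p under 0.05. In lsm5 0% of 2932 were called by edgeR, where 137 had an unadjusted p under 0.05 and DESeq2 called 16, and none of the 3 tested bins of the repressors had an unadjusted p under 0.05. Exon 6 of MAF2, counted as an alternative 3′ splice site bin, had 821, 484 and 720 reads in lsm4 and 188, 874 and 444 in WT Col, and 84, 64 and 47 in lsm5 and 63, 242 and 76 in WT C24, and did not pass in either comparison. Exon 6 of FLC, a skipped-exon bin, had 91, 95 and 219 reads in lsm5, against 200, 147 and 345 in WT C24. Exon 2 of MAF5, also a skipped-exon bin, had 0, 0 and 3 reads in lsm4, against 9, 10 and 3 in WT Col. Its ratio relative to the gene was 0.308, with an exact 95% interval of 0.0591 to 1.03. It was picked for its few lsm4 reads, so the interval is no test of a difference.

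The gene lists are read beside all genes, of which 21.4% were called in lsm4 and 2.45% in lsm5, with median log2 fold changes of 0.020 in lsm4 and 0.0071 in lsm5. Of 22 activators of FLC (the FRIGIDA, PAF1 and SWR1 complexes, histone modifiers and cap-binding proteins) none was called by edgeR in lsm4 or lsm5, with median log2 fold changes of 0.16 in lsm4 and 0.24 in lsm5. In each mutant 3 of them had an unadjusted p under 0.05 and DESeq2 called 1, HUB1 in lsm4 and CBP80 in lsm5. Of 12 autonomous-pathway genes, which lower FLC in the wild type, none was called by edgeR in either mutant, with medians of 0.14 in lsm4 and 0.24 in lsm5. There 2 had an unadjusted p under 0.05 in lsm4, where DESeq2 called FPA, and 1 in lsm5, where DESeq2 called 0. Of 10 vernalization and Polycomb genes, which silence FLC, 1 rose and 1 fell in lsm4, and none of 9 tested was called in lsm5 by edgeR (1 at an unadjusted p under 0.05) or DESeq2. The list medians were 0.25 in lsm4 and -0.18 in lsm5.
VIN3, the cold-induced silencer of FLC, had 13, 11 and 14 counts in lsm4, against 0, 2 and 2 in WT Col (adjusted p = 0.025), a call lost in 7 of 12 alternatives, among them those without WT Col replicate 2 or 3 and without lsm4 replicate 1 or 3 (adjusted p = 0.051 to 0.12). CLF, a histone methyltransferase of Polycomb, had 14.6, 15.7 and 16.5 CPM in lsm4, against 25.3, 22.0 and 21.5 CPM in WT Col, and fell by 0.57 ± 0.17 on the log2 scale (adjusted p = 0.044), a call lost in 8 of 13 alternatives, among them those without any 1 of the 6 columns (adjusted p = 0.060 to 0.19).

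Of 8 genes known to be bound or repressed by FLC, SVP or FLM, 6 were tested in lsm4, where SEP3 rose and SPL15, FD and AGL24 fell, beside 10.7% of all genes called higher and 10.7% called lower. SEP3, a floral identity gene, had 1.62, 2.94 and 1.93 CPM in lsm4, against 0.0953, 0.344 and 0.08001 CPM in WT Col, and rose by 3.33 ± 0.57 on the log2 scale (adjusted p = 0.0041). SPL15, a promoter of flowering at the shoot apex, had 0.530, 0.409 and 0.530 CPM in lsm4, against 3.43, 4.43 and 5.92 CPM in WT Col, and fell by 3.26 ± 0.35 (adjusted p = 5.2e-04). Both were separated without overlap.
FD, the partner of FT at the apex, had 0.586, 0.179 and 1.26 CPM in lsm4, against 2.48, 3.87 and 4.201 CPM in WT Col, and fell by 2.44 ± 0.58 (adjusted p = 0.018), with an adjusted p of 0.053, 0.056 and 0.066 without WT Col replicate 2, WT Col replicate 3 and lsm4 replicate 1. AGL24, a relative of SVP that promotes flowering, had 3.38, 2.81 and 3.07 CPM in lsm4, against 10.1, 6.48 and 7.16 CPM in WT Col, and fell by 1.37 ± 0.26 (adjusted p = 0.0068).

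In lsm5, 7 of the 8 targets were tested and FT alone was called, beside 2.45% of all genes. FT had 1.18, 3.08 and 2.06 CPM in lsm5, against 0, 0.0638 and 0.363 CPM in WT C24, without overlap, and rose by 3.78 ± 0.80 on the log2 scale (adjusted p = 0.047), a call lost in 5 of the 6 fits that leave out 1 column, those without WT C24 replicate 1, 2 or 3 and without lsm5 replicate 1 or 2 (adjusted p = 0.075 to 0.17). Those fits called 23 to 398 genes in all, against 486 with all columns. FT had 1.23, 1.02 and 1.06 CPM in lsm4, against 0, 0.688 and 0.360 CPM in WT Col. These groups did not overlap either, but the difference did not pass (adjusted p = 0.17). SOC1 had 8.64, 9.47 and 17.6 CPM in lsm5, against 7.04, 3.83 and 9.95 CPM in WT C24, and overlapped.
The list medians were -0.65 in lsm4 and 1.11 in lsm5, beside 0.020 and 0.0071 over all genes.

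**Figure D5:**
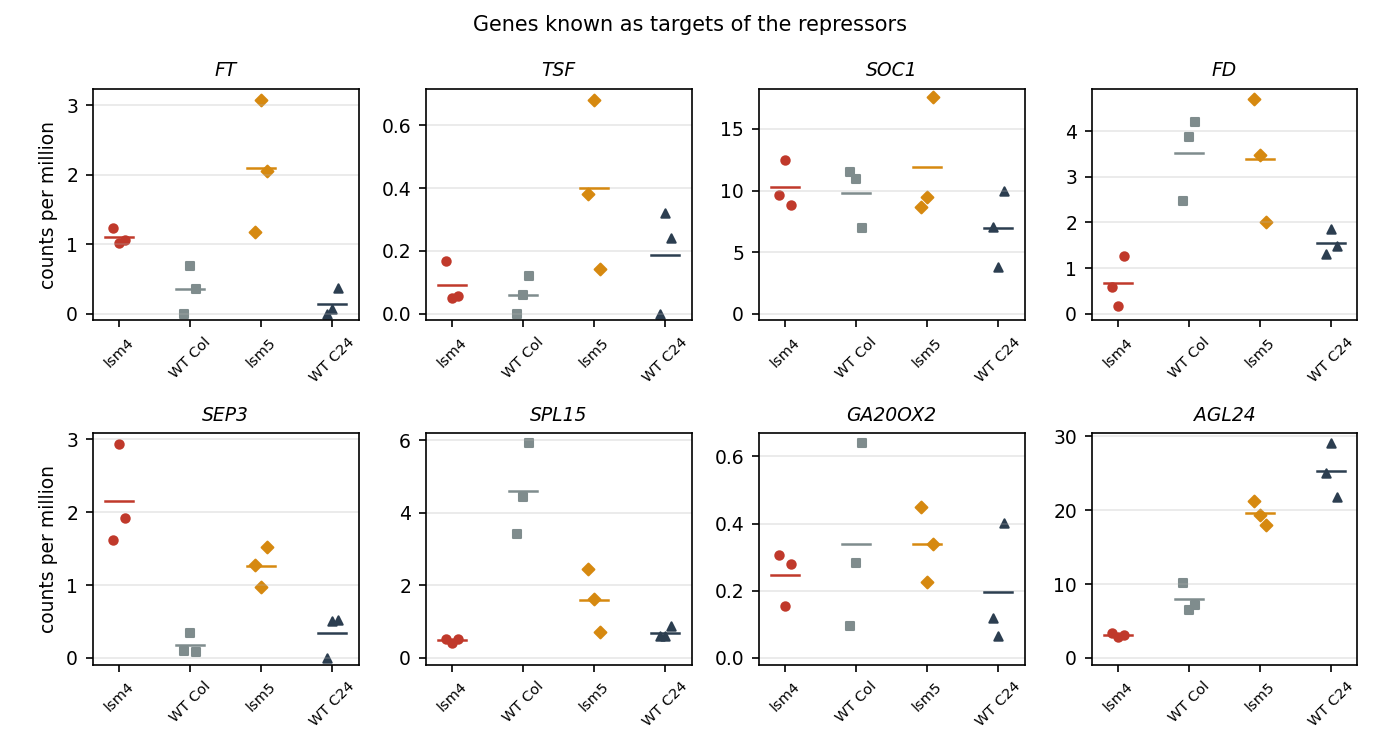
Level of 8 known target genes in every count column, in CPM, with lsm4 left of WT Col and lsm5 left of WT C24, points for replicates and lines for means. FT lies at 1.18 to 3.08 CPM in lsm5 above 0 to 0.363 CPM in WT C24, and SPL15 lies at 0.409 to 0.530 CPM in lsm4 below 3.43 to 5.92 CPM in WT Col.

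Markers of other tissues moved with these groups. Of 7 floral organ genes, 6 were tested in lsm5 and 2 were called, AP1 with 60, 84 and 77 counts in lsm5 against 0, 1 and 0 in WT C24 (adjusted p = 0.0039), and AP3 with 20, 17 and 24 counts in lsm5 against 0, 1 and 0 in WT C24 (adjusted p = 0.021), in plants labelled as taken before bolting. AP3 lost its call without WT C24 replicate 1 or 3 or lsm5 replicate 1 or 2 (adjusted p = 0.077 to 0.12). Those fits called 23 to 98 genes in all, against 486 with all columns. The summed level of the 7 floral organ genes was 7.38 to 8.44 CPM in lsm5 and 0.597 to 4.31 CPM in WT C24. In lsm4 only SEP3 of 3 tested was called, and AP3 had 0 counts in every lsm4 and WT Col column. The median log2 fold change of these 3 was -0.87, against 0.020 over all genes, so SEP3 alone of them lay above 0. The summed level, which includes SEP3, was 2.57 to 3.32 CPM in lsm4 and 0.667 to 1.96 CPM in WT Col. Of the 4 root markers, RHD6, CASP1 and IRT1 fell in lsm4. They fell by 2.53, 1.57 and 1.10 on the log2 scale (adjusted p = 0.0033, 0.0095 and 0.011), IRT1 with an adjusted p of 0.055 without lsm4 replicate 1, while only NRT2.1 could be tested in lsm5 and it was not called. The part of floral or root tissue in the levels of the repressors was not tested.

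The genes whose levels were most like those of a repressor were found by Pearson's r of log2(CPM + 0.5) over the 12 columns, for FLC, MAF4 and SVP, among 21588 genes. For FLC they were AT1G09420 (G6PD4) with r = 0.999, AT1G09421, which overlaps it by 696 bases, with r = 0.993, and AT5G42440 with r = 0.991. Within the 6 columns of one accession, r of FLC with AT1G09420 was 0.986 in the Col plants and 0.980 in the C24 plants, and with the other 2 genes it was 0.850 to 0.943 in the Col plants and 0.903 to 0.917 in the C24 plants. For MAF4 they were AT3G50570 (r = 0.973), AT1G10150 (r = 0.951) and AT4G15490 (UGT84A3, r = 0.933), and for SVP AT2G44290 (r = 0.982), AT2G35820 (r = 0.981) and AT3G25882 (NIMIN-2, r = 0.981). Within one accession these values were lower, at 0.621 to 0.871 in the Col plants and 0.864 to 0.960 in the C24 plants for MAF4, and at 0.892 to 0.905 in the Col plants and 0.5001 to 0.822 in the C24 plants for SVP. The columns share their accession, age and substrate in sets of 6, so the 12 are not independent points, and no p is given.

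The authors' deposited tables of changed genes list FLC, MAF5 and MAF3 in lsm4 and FLC, MAF5, MAF2 and MAF4 in lsm5. In the authors' deposited table the log2 fold changes in lsm4 are -3.53 for FLC, -1.60 for MAF5 and 0.85 for MAF3. For lsm5 the authors' deposited table gives -1.24 for FLC (FDR 4.8e-05), -1.13 for MAF2 (FDR 0.020), -1.08 for MAF4 (FDR 0.029) and -1.199 for MAF5 (FDR 0.053), so MAF2 and MAF4 pass 0.05 there and not here. The authors' deposited intron table lists 2 stretches within intron 2 of FLM as lower in lsm4, at log2 fold changes of -1.29 (FDR 0.12) and -1.53 (FDR 0.10), and no other intron of the 7 genes.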

How the data were processed

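PolyA RNA of whole plants was sequenced without strand information, per the labels' protocols. TopHat2 2.0.9, R 3.0.2, edgeR 3.4.2 and the TAIR10 build are named in the submitters' processing notes. The authors deposited counts per gene, intron and AS bin, with 12 columns each taken as the sum of a replicate's 2 libraries, and log2 fold changes with FDR values (adjusted p-values) of their own comparisons. A further 12 per-sample columns could not be matched to samples and were not used. One unnamed intron row, holding 11 counts, was left out.

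Genes were filtered with filterByExpr (minimum count 10), scaled by TMM and tested with edgeR 4.0.16 (quasi-likelihood, Benjamini-Hochberg, adjusted p under 0.05) in R 4.3.3. Intron and AS bin counts were fitted with their gene's logged count as an offset, if that gene reached 10 counts in all columns. CPM values use TMM over all 12 columns. SE is the unshrunk log2 fold change over the square root of F. The fitting scripts were tested on simulated data. DESeq2 1.42.0, other filters, replicate blocks and fits leaving out columns were alternatives, and those leaving out the columns that stand apart together were chosen after seeing the data. For the lists, at most the 4 called genes of largest change are named; for introns, those called and the 2 of highest mean count per gene, with further introns and bins chosen after their values were seen. Of the count table's introns, 98.7% begin with GT and end with AG in the TAIR10.1 reference, which was read for sequences only. The 7 genes and the gene lists were chosen with earlier results of these data known. Intervals and floors cover counting error only.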

Additional observations from a re-analysis of the deposited data

Results flagged for a closer look

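The joint edgeR fit found effects of different size in the 2 mutants for FLC and MAF2 among the repressors. FLC had an lsm5 effect minus lsm4 effect of 2.28 on the log2 scale, and MAF2 of -1.19. Among their known targets, SPL15 had a difference of 4.41 (adjusted p = 9.0e-04) and FD of 3.52 (adjusted p = 0.0097). SPL15 had 2.45, 1.62 and 0.704 CPM in lsm5, against 0.597, 0.606 and 0.887 CPM in WT C24, where the groups overlapped, while it fell in lsm4. SWN, a Polycomb histone methyltransferase, had a difference of -0.94 (adjusted p = 0.015), with 37.5, 42.9 and 37.2 CPM in lsm5 against 60.4, 52.2 and 50.2 CPM in WT C24, and 38.2, 38.0 and 42.2 CPM in lsm4 against 26.2, 32.1 and 27.3 CPM in WT Col. Subunit, accession, age and substrate cannot be told apart in any of these differences.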

How the results depend on the processing

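Of 713 alternatives of 48 single features, 614 kept direction and call, 66 lost the call, 17 gained it and 16 turned direction. Among the repressors, leaving out 1 column gave 1 to 3 gene calls in lsm4 (3 with all columns), 0 to 1 in lsm5 (1) and 1 to 2 in the difference (2). It gave 0 to 2 intron calls in lsm4 (1) and 0 to 1 in lsm5 (0). In lsm5 the gene calls were 4 with DESeq2's Wald test, 3 with the replicate block (adding MAF2, adjusted p = 0.046, and MAF4, 0.039, among 1342 of 19819 genes called), 2 with the shared tag block, a mark in the labels (adding MAF2, 0.048, among 1271), and 4 without WT C24 replicate 2 and lsm5 replicate 3. That last fit, with columns chosen after seeing the data, called 7901 of 19792 genes, 1230 of 7267 introns and 937 of 2928 AS bins. Of the repressors it called 1 intron and 2 AS bins. The replicate block gave 1 intron call in lsm5, MAF2 intron 3 (adjusted p = 0.034), among 232 of 7151. Gene calls in the difference were 1 with DESeq2 size factors, 1 with a mean count of at least 30 and 1 with the shared tag block, and intron calls were 1 without the 4 columns that stand apart. Intron calls in lsm4 were 2 without a filter, 3 with the shared tag block and 0 without the host gene offset.

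Directions turned in values that had not passed. Leaving out 1 column gave log2 fold changes of -0.11 to 0.17 for MAF2 in lsm4, -0.087 to 0.43 for MAF3 in lsm5 (0.51 without WT C24 replicate 2 and lsm5 replicate 3), -0.43 to 0.087 for MAF3 between wild types, -0.25 to 0.10 for MAF2 intron 3 in lsm4 and -0.031 to 0.41 for SVP intron 6 in lsm5. SVP in lsm5 was 0.033 with the shared tag block, MAF5 in the difference -0.11 without the 4 columns, and MAF2 intron 3 in lsm4 0.0035 without WT Col replicate 1 and lsm4 replicate 2. SVP intron 6 in lsm5 was -0.059 with the shared tag block, -0.12 without the offset and -0.082 without WT C24 replicate 2 and lsm5 replicate 3. The MAF2 intron share in lsm4 minus WT Col was 0.776 percentage points, -0.050 to 2.01 leaving out 1 column and -0.134 without the longest intron, and the MAF3 share in lsm5 minus WT C24 was -1.65, or -3.38 to 1.65. The causes were not tested. Same-numbered replicates correlated at -0.27, -0.13 and 0.40 in the lsm4 comparison and -0.26, 0.52 and 0.48 in the lsm5 comparison. These are correlations of deviations from a mean of only 3 columns, so they cannot decide whether same-numbered replicates were paired. DESeq2 size factors do not apply to fits with a gene offset, and the shared tag block could not be estimated between wild types. Low counts limit FLC in Col plants, FLM in C24 plants and most introns.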
